A study of Mus musculus with 8 samples.

Results

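The adipokines and adiponectin receptors described here are 10 genes taken by name from the 31053 genes of the count tables, 8 genes of secreted factors (*Adipoq*, *Cfd*, *Retn*, *Lep*, *Lrg1*, *Nampt*, *Lcn2* and *Angptl4*) and the genes of both adiponectin receptors (*Adipor1* and *Adipor2*). All 10 have an Ensembl identifier in the tables and 9 of them had at least 1 count. The RNA came from fibro/adipogenic progenitors (FAPs), stromal cells of skeletal muscle that can turn into adipocytes or fibroblast-like cells. They were taken from hind limb muscles of 45-day-old mice of the strain C57BL/10ScSn-Dmdmdx/J, the *mdx* strain, which lacks dystrophin. The cells were sorted by high or low surface SCA-1 and each state was then grown for 5 days in growth medium (GM), without adipogenic induction, before RNA was extracted. Both groups therefore share the *mdx* background, the age, the medium and the time in culture, with 4 replicates per state, and neither wild type cells nor freshly sorted cells were analysed here.

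Adipose tissue signals to other tissues through secreted proteins called adipokines. Adiponectin is made mainly by fat cells and acts through the receptors AdipoR1 and AdipoR2, which promote fatty acid oxidation through AMPK and PPAR-alpha and increase sensitivity to insulin. Adipsin, resistin and leptin are also products of fat cells, whereas NAMPT, LRG1, lipocalin-2 and ANGPTL4 are made by many tissues, and in muscle FAPs are a source of the adipocytes that replace fibres in disease.

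The libraries were 3′ mRNA libraries, in which a transcript gives reads near its 3′ end whatever its length, so counts were not divided by gene length. Each sample had between 1880561 and 3985656 reads counted on genes, and 3 counts, taken as the least that this depth can show, corresponded to 0.753 to 1.595 CPM. CPM is the usual scaling of a gene's count to the total count on genes of the same sample. That total was first multiplied by the TMM normalisation factor of the sample, from 0.955 to 1.04. The CPM given for limits of 3 counts use the plain total. The limit covers counting error only, since copies of a molecule made by PCR were not told apart. The FAP label was checked on *Pdgfra*, *Cd34*, *Dcn*, *Thy1*, *Pdgfrb*, *Col1a1* and *Ly6a*, all of which were detected. Their levels were not all alike between the states. In the edgeR test described below, *Dcn* was higher in SCA1-High-FAPs (log2 fold change −2.08, adjusted p = 0.0167). *Thy1* was higher in SCA1-Low-FAPs (0.67, adjusted p = 0.0105), and *Pdgfra*, *Cd34*, *Pdgfrb* and *Col1a1* did not pass. *Pax7*, *Myod1*, *Myf5* and *Myog* of muscle cells had no count in any sample. The same held for *Adgre1* and *Itgam* of leucocytes and for *S100a9*, *Ngp*, *Ltf* and *Mpo* of neutrophils. Of the 6 muscle cell markers, 2 were detected, *Itga7*, whose protein the sort selected against, and *Des*. *Itga7* had 18 counts over SCA1-High-FAPs and 26 over SCA1-Low-FAPs, and *Des* had 9 and 6. The sum of the 6 was highest in SCA1-Low-FAPs replicate 2, at 12.5 CPM, and reached 6.59 CPM in SCA1-High-FAPs replicate 1. It was 0 in SCA1-High-FAPs replicate 2 and SCA1-Low-FAPs replicate 1. *Ly6a*, the gene of the sorting marker SCA-1, had more mRNA after culture in SCA1-Low-FAPs, at 1087 ± 58.8 CPM (SD, n = 4), than in SCA1-High-FAPs, at 711 ± 184 CPM (SD, n = 4). On the log2 scale the difference was 0.61 ± 0.17 (SE, adjusted p = 0.0341), opposite to the order of the sort, and passed in only 1 of the 8 fits that each left out a sample, so the names of the states refer to the surface protein at sorting.

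The stretches just before the start sites of *Adipoq*, *Cfd* and *Retn*, which had the log2 fold changes of largest size in the group, are shown beside that of *Adipor1*, whose mRNA did not differ detectably. The 250 bases before each start were taken from RefSeq on GRCm38.p6. They are written 5′ to 3′ along the strand of the gene, in lower case with motif matches in capitals. *Adipoq* lies on the plus strand with its window at chr16:23146286-23146535, and the windows of *Cfd*, *Retn* and *Adipor1*, also on plus strands, are chr10:79890603-79890852, chr8:3655520-3655769 and chr1:134415128-134415377.

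Adipoq: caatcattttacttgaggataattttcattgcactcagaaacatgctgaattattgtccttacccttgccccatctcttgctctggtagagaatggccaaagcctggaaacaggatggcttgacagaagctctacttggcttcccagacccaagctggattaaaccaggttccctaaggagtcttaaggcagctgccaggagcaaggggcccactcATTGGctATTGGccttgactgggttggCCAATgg

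Cfd: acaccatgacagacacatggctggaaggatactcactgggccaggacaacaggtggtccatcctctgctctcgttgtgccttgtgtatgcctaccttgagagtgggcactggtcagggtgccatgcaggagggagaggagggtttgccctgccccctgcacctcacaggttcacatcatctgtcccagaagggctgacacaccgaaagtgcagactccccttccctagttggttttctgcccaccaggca

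Retn: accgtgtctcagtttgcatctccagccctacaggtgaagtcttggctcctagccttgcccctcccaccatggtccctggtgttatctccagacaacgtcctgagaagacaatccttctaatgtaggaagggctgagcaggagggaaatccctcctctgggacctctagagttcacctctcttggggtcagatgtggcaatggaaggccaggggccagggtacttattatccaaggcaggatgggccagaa

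Adipor1: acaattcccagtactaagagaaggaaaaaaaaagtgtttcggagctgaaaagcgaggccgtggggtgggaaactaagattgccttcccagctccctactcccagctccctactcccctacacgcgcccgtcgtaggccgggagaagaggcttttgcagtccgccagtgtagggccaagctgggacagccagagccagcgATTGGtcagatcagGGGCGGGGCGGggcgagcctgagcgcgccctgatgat

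Windows were found for 9 of the 10 genes. That of *Adipor2* starts from a RefSeq start 28970 bases inside the GENCODE gene, where no start of a GENCODE transcript was found, so its lack of matches in the counts below bears on that RefSeq start alone. For *Adipor1* only the window at the RefSeq start equal to the GENCODE gene start was used. Both strands were searched, and shares are given over 32851 windows of the same length. The TATA box letters TATAAA, present in 12.4% of all windows, were in 0 of the 9. The CCAAT box, in 33.8% of all windows, was in 3 (*Adipoq*, *Adipor1* and *Lrg1*). The C/EBP letters TTGCNNAA, in 9.56%, were in 2 (*Lep* and *Lcn2*). The GC box GGGCGG, in 32.7%, was in 4 (*Adipor1*, *Lep*, *Nampt* and *Lcn2*). The PPAR direct repeat, AGGNCA written in a row with itself after 1 base of any kind, was in 0.338% of all windows and in 0 of the 9. The *Adipoq* window held 3 CCAAT matches, 2 of them on the opposite strand, all within 34 bases of the start. The *Adipor1* window held 2 GC boxes that overlap by 1 base. The windows of *Cfd* and *Retn* held none of the letters searched, and a match or its absence describes only these letters in this window.

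Between the cell states 5 of the 10 genes differed. Of the 10, 8 passed the filter on low counts, 5 of these passed the test and all 5 were higher in SCA1-High-FAPs, namely *Adipoq*, *Retn*, *Adipor2*, *Angptl4* and *Nampt*. The test was the quasi-likelihood test of edgeR across 10181 genes, with thresholds of 0.05 for the Benjamini-Hochberg adjusted p and of 0.5 for the size of the log2 fold change. Every log2 fold change is given as SCA1-Low-FAPs relative to SCA1-High-FAPs and is negative where SCA1-High-FAPs had more mRNA. Across all tested genes 7.68% passed, 4.36% as higher in SCA1-High-FAPs and 3.32% as higher in SCA1-Low-FAPs. Among the tested genes of the group 7 of 8 had a negative log2 fold change, and their median was −2.39, against 0.0003 for all tested genes. In 6 of them (*Adipoq*, *Cfd*, *Retn*, *Lrg1*, *Nampt* and *Adipor2*) all 4 SCA1-High-FAPs lay above all 4 SCA1-Low-FAPs in CPM, a separation that 7.46% of the tested genes had. In these bulk samples, more cells that make an mRNA and more of that mRNA per cell cannot be told apart.

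**Figure D1:**
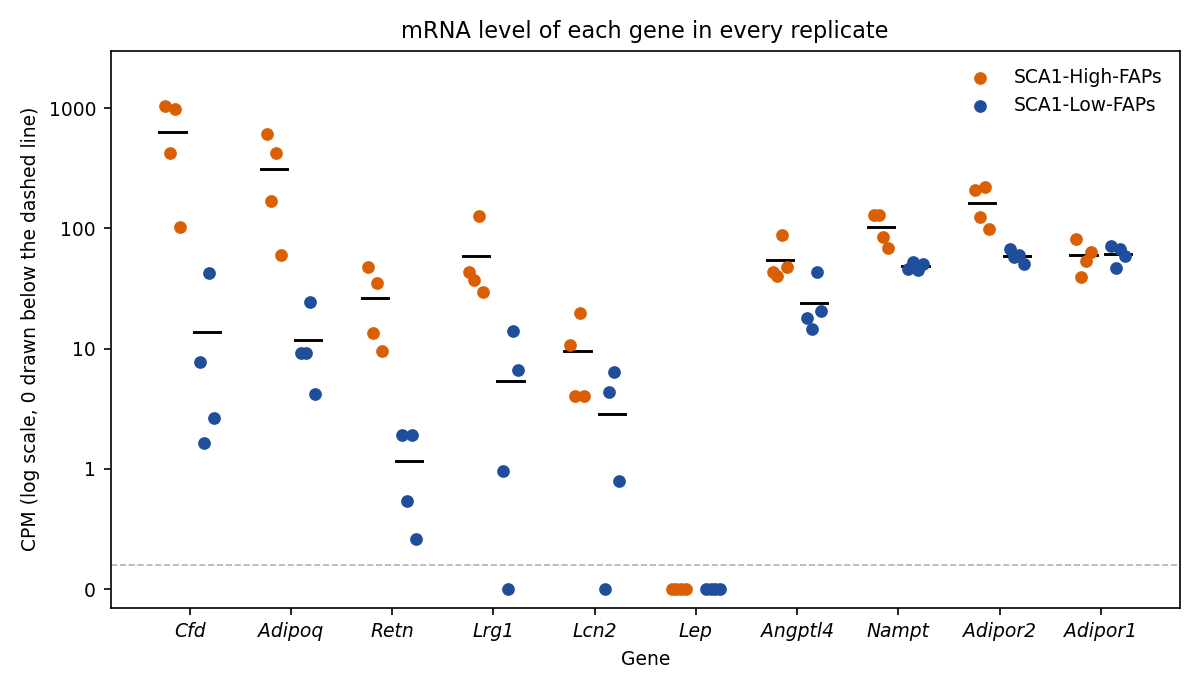
CPM (log axis, with 0 drawn below the dashed line) of each of the 10 genes in each of the 4 SCA1-High-FAPs (orange) and 4 SCA1-Low-FAPs (blue) replicates, with black bars for the means. *Cfd*, *Adipoq*, *Retn*, *Lrg1*, *Nampt* and *Adipor2* show no overlap between the states, *Angptl4*, *Lcn2* and *Adipor1* overlap, and *Lep* is at 0 in every sample.

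*Adipoq* encodes adiponectin. It is ENSMUSG00000022878 and lies on chromosome 16 of GRCm38 from 23146536 to 23158028. In SCA1-High-FAPs it stood at 608 CPM in replicate 1, 169 in replicate 2, 421 in replicate 3 and 60.1 in replicate 4. In SCA1-Low-FAPs the values were 9.18, 9.26, 24.4 and 4.22 CPM. Even the lowest sample of SCA1-High-FAPs was above the highest of SCA1-Low-FAPs, but the former spread widely among themselves, with replicate 1 far above replicate 4. The means were 314 ± 247 CPM and 11.8 ± 8.76 CPM (SD, n = 4 each). The log2 fold change was −4.72 ± 0.95 (SE, adjusted p = 0.0352), a 26.3-fold difference. This call was close to the threshold and was lost in 6 of the 8 fits that left out a sample. Leaving out SCA1-High-FAPs replicate 1, 2 or 3 gave adjusted p-values of 0.0591, 0.0535 and 0.0835, and leaving out SCA1-Low-FAPs replicate 1, 2 or 4 gave 0.111, 0.0978 and 0.108. Without SCA1-High-FAPs replicate 4 it was 0.0145 and without SCA1-Low-FAPs replicate 3 it was 0.0396, and in all 8 fits the log2 fold change stayed between −5.46 and −4.17. DESeq2 on all samples gave −4.74 with an adjusted p of 8.14e-07.

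*Cfd* encodes adipsin, or complement factor D, the serine protease that cleaves factor B in the alternative complement pathway. It is ENSMUSG00000061780, on chromosome 10 from 79890853 to 79892655. Its values in replicates 1 to 4 were 1036, 425, 980 and 103 CPM in SCA1-High-FAPs, and 7.73, 1.63, 42.8 and 2.64 CPM in SCA1-Low-FAPs. SCA1-Low-FAPs replicate 3 stood well above the other samples of its state, and the states did not overlap. *Cfd* had the most negative log2 fold change of the group, −5.46 ± 1.25 (SE), and yet did not pass, with an adjusted p of 0.0534. Leaving out SCA1-Low-FAPs replicate 3 gave −7.36 with an adjusted p of 0.0249, and leaving out SCA1-High-FAPs replicate 4 gave −5.81 with 0.0472. The other 6 such fits gave adjusted p-values up to 0.156, and DESeq2 gave −5.53 with 8.08e-05. The count of *Cfd* was 1.70 to 2.52 times that of *Adipoq* in SCA1-High-FAPs samples and 0.176 to 1.75 times in SCA1-Low-FAPs samples. The ratio was therefore not fixed across samples, although in SCA1-Low-FAPs it rests on as few as 3 counts of *Cfd*.

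*Retn* encodes resistin, a cysteine-rich peptide that in mice is a product of fat cells. It is ENSMUSG00000012705, on chromosome 8 from 3655770 to 3660110. SCA1-High-FAPs had 101, 30, 85 and 26 counts, or 47.6, 13.6, 35.5 and 9.53 CPM, in replicates 1 to 4. SCA1-Low-FAPs had 4, 1, 6 and 1 counts, or 1.93, 0.545, 1.90 and 0.264 CPM. The mRNA was thus well covered in SCA1-High-FAPs and near the limit of detection in SCA1-Low-FAPs, with a clear gap between the states. The log2 fold change was −4.49 ± 0.65 (SE, adjusted p = 0.000797), and *Retn* passed in all 8 fits that left out a sample, with adjusted p-values up to 0.00645. It dropped out of the test where at least 10 counts were asked of every sample. The related genes *Retnla*, *Retnlb* and *Retnlg* had no count in any sample.

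*Lep*, the gene of the satiety hormone leptin (ENSMUSG00000059201, chromosome 6 from 29060220 to 29073877), had 0 counts in all 8 samples. The 4 SCA1-High-FAPs had 9432903 counts on genes together, so that 0 counts allow up to 0.318 CPM, taking 3 counts over the state, and the 11048894 of SCA1-Low-FAPs allow up to 0.272 CPM. *Lepr*, which encodes its receptor, had 1 count over all samples. Neither the hormone nor its receptor was therefore detectable at this depth, and no fold change can be given for them.

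The other 4 secreted factors have roles beyond fat cells. *Lrg1* (ENSMUSG00000037095, chromosome 17 from 56119678 to 56122001) encodes a leucine-rich glycoprotein that binds the TGF-beta co-receptor endoglin. Its values were 43.3, 37.5, 127 and 29.3 CPM in SCA1-High-FAPs and 0.967, 0, 14.0 and 6.60 CPM in SCA1-Low-FAPs. Replicate 3 was the highest of each state, and the states did not overlap. *Lrg1* did not pass, with a log2 fold change of −3.30 ± 0.91 (SE) and an adjusted p of 0.0773. DESeq2 gave −3.45 with 0.0360, and edgeR without SCA1-Low-FAPs replicate 3 gave −4.24 with 0.0329. Without SCA1-High-FAPs replicate 3, its highest sample, the value was −2.63 with 0.101. Leaving out any sample other than SCA1-Low-FAPs replicate 3 gave adjusted p-values up to 0.212.

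*Nampt* (ENSMUSG00000020572, chromosome 12 from 32819545 to 32853349) encodes nicotinamide phosphoribosyltransferase, the rate-limiting enzyme of NAD salvage, which is also found outside cells as visfatin. It stood at 129, 129, 85.6 and 69.3 CPM in SCA1-High-FAPs and at 46.4, 52.8, 45.0 and 50.2 CPM in SCA1-Low-FAPs. SCA1-Low-FAPs were close to each other, with an SD of 3.55 CPM, and every SCA1-High-FAPs sample lay above them. The log2 fold change was −1.09 ± 0.21 (SE, adjusted p = 0.00435), a 2.12-fold difference, and it passed in all 8 fits that left out a sample. A long non-coding gene on the same strand, *Gdap10*, overlaps *Nampt* in the annotation and had 42 counts over all samples, so that reads of the shared stretch may be missing from either.

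*Angptl4* (ENSMUSG00000002289, chromosome 17 from 33773750 to 33781830) encodes a secreted inhibitor of lipoprotein lipase. Its values were 43.8, 40.2, 88.5 and 47.7 CPM in SCA1-High-FAPs and 17.9, 14.7, 43.1 and 20.6 CPM in SCA1-Low-FAPs. Replicate 3 was the highest of both states, and SCA1-Low-FAPs replicate 3 overlapped the range of SCA1-High-FAPs. With a log2 fold change of −1.17 ± 0.34 (SE), *Angptl4* passed at an adjusted p of 0.0447, a 2.25-fold difference. This call was also lost in 6 of the 8 fits that left out a sample. The adjusted p was 0.0566, 0.141 and 0.0639 without SCA1-High-FAPs replicate 1, 3 or 4, and 0.144, 0.122 and 0.140 without SCA1-Low-FAPs replicate 1, 2 or 4. Without SCA1-Low-FAPs replicate 3 the log2 fold change was −1.63, with an adjusted p of 0.00303, and without SCA1-High-FAPs replicate 2 the adjusted p was 0.0475. DESeq2 on all samples gave −1.18 with an adjusted p of 0.0178.

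*Lcn2* (ENSMUSG00000026822, chromosome 2 from 32384633 to 32388252) encodes lipocalin-2, which binds iron-carrying siderophores. It was too low for the filter, with 10.8, 4.07, 19.6 and 4.03 CPM in SCA1-High-FAPs and 0, 4.36, 6.34 and 0.792 CPM in SCA1-Low-FAPs. The states overlapped, and DESeq2, which did test it, gave a log2 fold change of −1.75 with an adjusted p of 0.196.

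**Figure D2:**
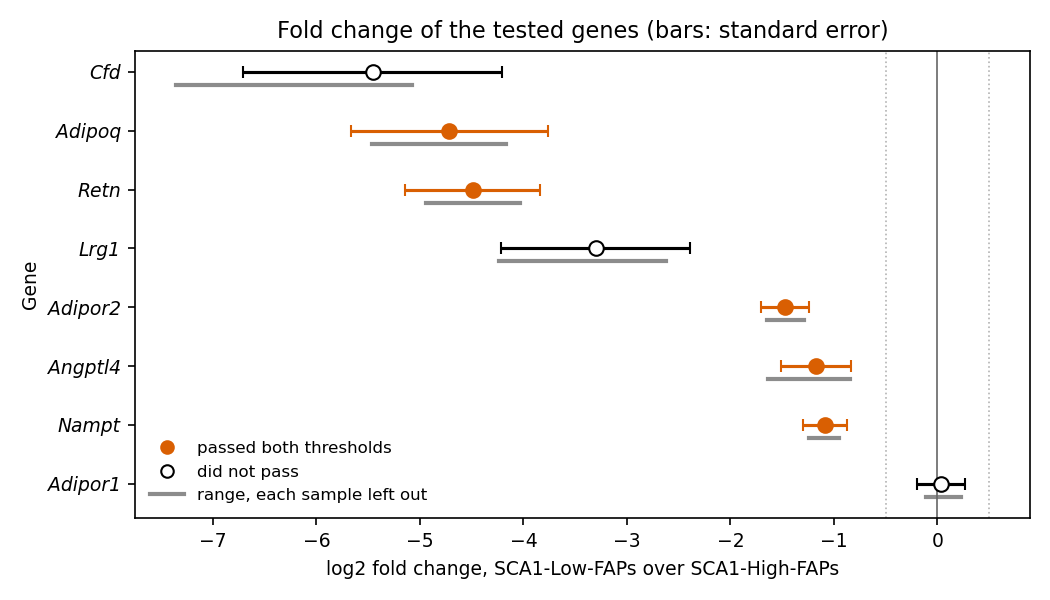
Log2 fold change, SCA1-Low-FAPs relative to SCA1-High-FAPs (horizontal axis), for the 8 tested genes, with bars for the standard error, filled points for genes past both thresholds, and grey lines for the range over the 8 fits that left out a sample. *Cfd*, *Adipoq*, *Retn* and *Lrg1* lie between −5.46 and −3.30, *Adipor2*, *Angptl4* and *Nampt* between −1.47 and −1.09, and the range of *Adipor1* spans 0.

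The receptors differed in their change. *Adipor2* (ENSMUSG00000030168, chromosome 6 from 119353150 to 119417704, minus strand) stood at 208, 125, 223 and 99.0 CPM in SCA1-High-FAPs and at 67.7, 57.7, 59.9 and 51.0 CPM in SCA1-Low-FAPs. All 4 SCA1-High-FAPs were above all 4 SCA1-Low-FAPs, with a wide spread in the former and a narrow one in the latter. The means were 164 ± 60.9 CPM and 59.1 ± 6.89 CPM (SD, n = 4 each), and the log2 fold change of −1.47 ± 0.23 (SE, adjusted p = 0.00132) amounted to a 2.77-fold difference. It passed in all 8 fits that left out a sample, between −1.65 and −1.29. *Adipor1* (ENSMUSG00000026457, chromosome 1 from 134415378 to 134433351) stood at 82.4, 39.3, 53.4 and 63.8 CPM in SCA1-High-FAPs and at 71.1, 46.8, 67.2 and 59.4 CPM in SCA1-Low-FAPs. Here all SCA1-Low-FAPs lay within the range of SCA1-High-FAPs. The log2 fold change was 0.04 ± 0.23 (SE, adjusted p = 0.955) and took either sign, from −0.11 to 0.23, as samples were left out.

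The difference between the receptors was tested within samples. A ratio of counts from the same sample needs no scaling between libraries. The log2 ratio of the *Adipor2* count to the *Adipor1* count, with 0.5 added to each, was 1.33, 1.66, 2.05 and 0.63 in SCA1-High-FAPs. It was −0.07, 0.30, −0.17 and −0.22 in SCA1-Low-FAPs, so that both receptors were counted about equally there while *Adipor2* led in every sample of SCA1-High-FAPs. The means of 1.42 ± 0.60 and −0.04 ± 0.23 (SD, n = 4 each) differed by more than the SDs. An exact permutation test, two-sided and over the 70 ways to assign the labels, gave p = 0.0286, which is the lowest value it can reach. The ratio was 2.75-fold higher in SCA1-High-FAPs, and its difference stayed between −1.72 and −1.25 as single samples were left out. With 3 samples left in SCA1-Low-FAPs, the exact permutation test gave p = 0.0571.

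**Figure D3:**
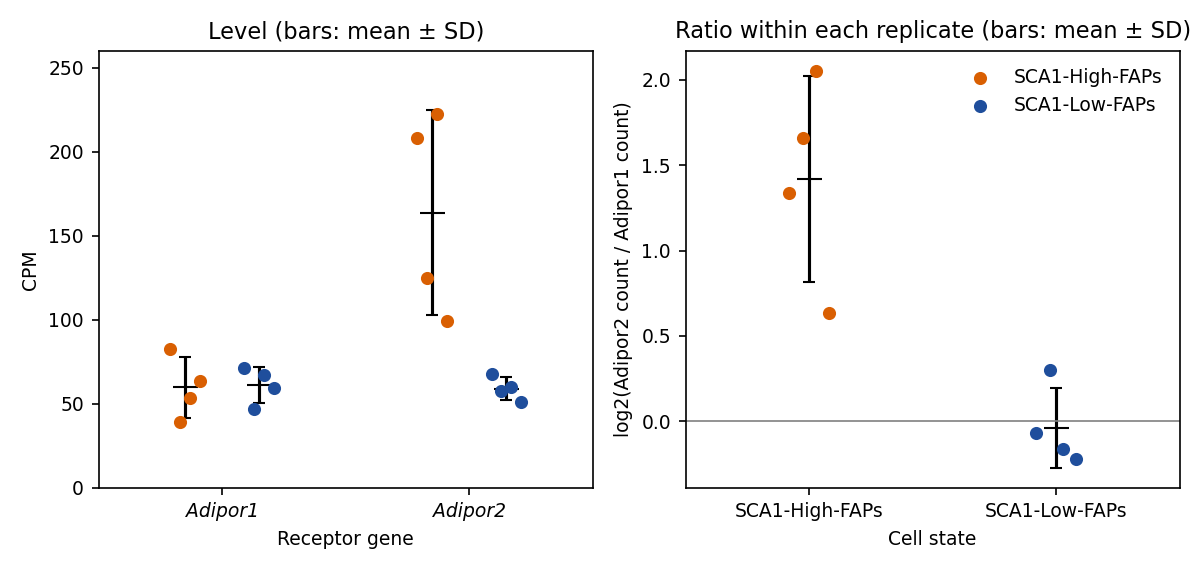
Left, CPM of *Adipor1* and *Adipor2* in each replicate, and right, the log2 ratio of the *Adipor2* count to the *Adipor1* count in each replicate, with bars for the mean ± SD of 4 replicates. The 4 ratios of SCA1-High-FAPs lie between 0.63 and 2.05, all above those of SCA1-Low-FAPs, between −0.22 and 0.30.

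Within the cell states, part of the group varied together from sample to sample. SCA1-High-FAPs replicate 1 or 3 was the highest and replicate 4 the lowest of its state for *Adipoq*, *Cfd*, *Retn*, *Adipor2*, *Lrg1*, *Nampt* and *Lcn2*. Among SCA1-Low-FAPs, replicate 3 was the highest for *Adipoq*, *Cfd*, *Lrg1*, *Lcn2* and *Angptl4*. To leave out the difference between states, the mean of each state was subtracted from the log2 CPM of each gene, and Pearson's correlation of the deviations was taken over the 8 samples. These values describe 8 samples that share library and depth between genes, and are given without a test. *Adipoq* had a correlation of 0.91 with *Retn*, 0.88 with *Cfd* and 0.85 with *Adipor2*. Over all tested genes the correlations with *Adipoq* lay between −0.62 and 0.64 from the 5th to the 95th percentile, so that these 3 were above that span. *Angptl4* (0.47), *Nampt* (0.40), *Lrg1* (0.37) and *Adipor1* (0.30) were within it. *Adipor2* had its highest value in the group with *Retn*, at 0.91, and a second pair was *Lrg1* and *Angptl4*, at 0.87. *Cfd* joined both sets, at 0.70 with *Angptl4* and 0.66 with *Lrg1*. As single samples were left out, the correlation of *Adipoq* stayed at or above 0.87 with *Retn*, 0.81 with *Cfd* and 0.69 with *Adipor2*. That with *Nampt* turned to −0.31 without SCA1-High-FAPs replicate 4, and that with *Adipor1* to −0.09 without SCA1-High-FAPs replicate 1.

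**Figure D4:**
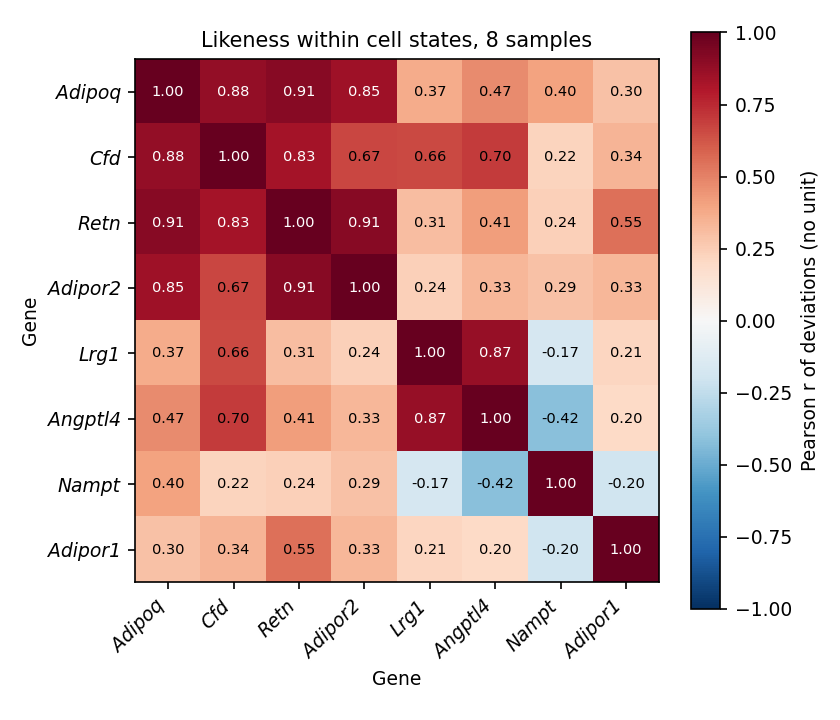
Pearson's correlation (colour and number, no unit) between the tested genes over 8 samples, computed on deviations of log2 CPM from the mean of each cell state. *Adipoq*, *Cfd*, *Retn* and *Adipor2* are linked by values of 0.67 to 0.91, *Lrg1* and *Angptl4* by 0.87 and these to *Cfd* by 0.66 and 0.70, and *Nampt* has none above 0.40.

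Among genes outside the group, the 5 most like *Adipoq* in this measure were *Mfap1b* (0.96), *Car3* (0.96), *H2-K1* (0.96), *Gulp1* (0.95) and *Hdhd3* (0.95). Only *Car3* and *Gulp1* of these 5 also passed the test between the states, at −5.77 and −1.08. The 5 most like *Adipor2* were *Vegfc* (0.98), *Thrap3* (0.98), *Pcx* (0.98), *Cd36* (0.95) and *Cyc1* (0.95), of which *Vegfc* and *Cd36* passed, at −1.56 and −2.81. Between the states *Thrap3* had a log2 fold change of 0.01. These values were picked as the highest from a search over 10181 genes in 8 samples and carry no test. They do not show that any of these genes follows *Adipoq* or *Adipor2*.

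Adipocyte markers other than the 10 genes moved with them. The 11 markers were the lipid droplet genes *Plin1*, *Plin4* and *Cidec*, the fatty acid carriers *Fabp4* and *Cd36*, the transcription factors *Pparg* and *Cebpa*, and *Lipe*, *Adrb3*, *Car3* and *Pck1*. Of these 9 were tested, and 6 passed, all higher in SCA1-High-FAPs, against 4.36% of all tested genes in that direction. The summed level of the 11 markers was 6018, 2332, 3374 and 1464 CPM in replicates 1 to 4 of SCA1-High-FAPs and 449, 592, 887 and 327 CPM in SCA1-Low-FAPs. Within each state the samples stood in the same order as for *Adipoq*. *Pck1* was at 0 in all samples. *Pparg*, *Fabp4* and *Plin1* did not pass, at −1.45 (adjusted p = 0.115), −2.77 (adjusted p = 0.101) and −2.45 (adjusted p = 0.0751). As single samples were left out, *Adrb3*, *Cd36*, *Cebpa* and *Plin4* passed in 8 of the 8 fits, and *Car3* and *Lipe* in 3. *Plin4* overlapped between the states. The 9 tested markers had a median correlation of 0.83 with *Adipoq* within states, from 0.63 for *Pparg* to 0.96 for *Car3*.

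Set against these markers, the genes fell into separate patterns. The summed markers were themselves higher in SCA1-High-FAPs, so a gene with equal CPM in both states lies lower there on this scale. The patterns thus restate how far each gene changed beside the sum. Per 1000 counts of the 11 markers, *Adipoq* had 101, 72.3, 125 and 41.1 counts in SCA1-High-FAPs and 20.5, 15.6, 27.5 and 12.9 in SCA1-Low-FAPs, which did not overlap. *Cfd* had 70.1 to 290 against 2.76 to 48.2, and *Retn* had 5.82 to 10.5 against 0.806 to 4.31, so that all 3 remained higher in SCA1-High-FAPs by this ratio. *Lrg1* overlapped on this scale, at 7.20 to 37.6 against 0 to 20.2, and so did *Angptl4* and *Nampt*, which leaned the other way. *Adipor1*, at 13.7 to 43.6 against 75.8 to 181, lay wholly lower in SCA1-High-FAPs. *Adipor2* reached 67.6 in SCA1-High-FAPs and started at 67.5 in SCA1-Low-FAPs. The markers themselves did not change alike, with log2 fold changes from −5.77 for *Car3* to −1.05 for *Cebpa* among those tested. These ratios therefore depend on which markers are summed. They carry no test, and the part of adipocyte-like cells in the differences was not tested.

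**Figure D5:**
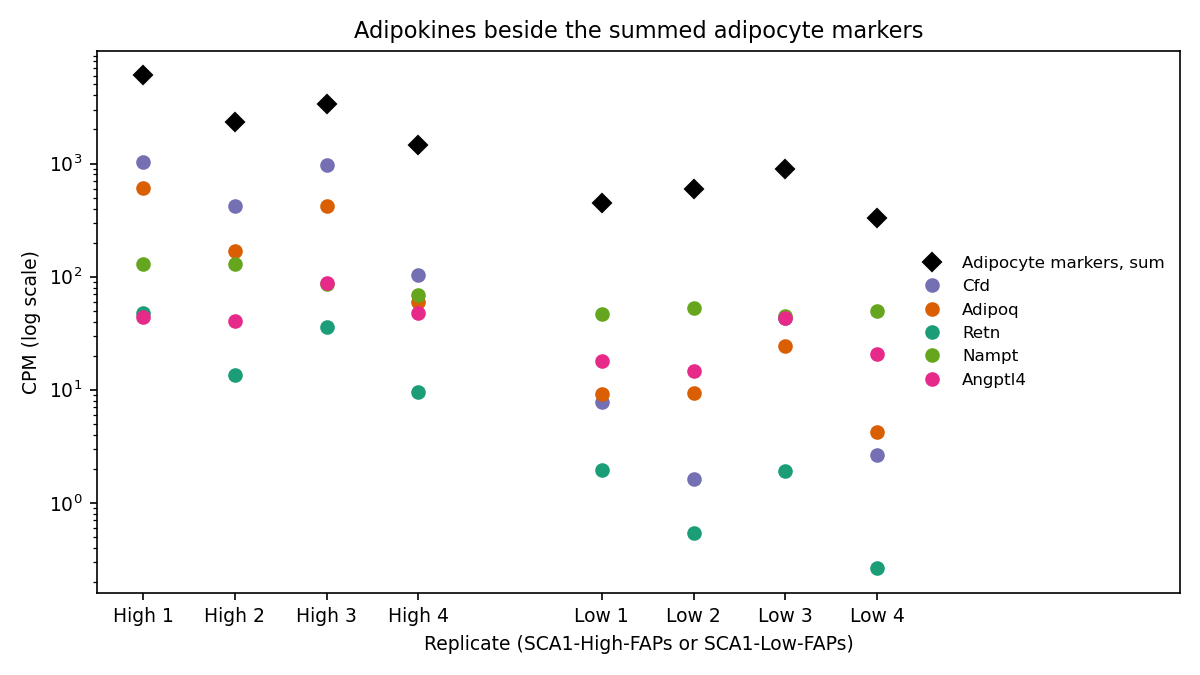
CPM (log axis) of *Cfd*, *Adipoq*, *Retn*, *Nampt* and *Angptl4* (circles) and of the summed 11 adipocyte markers (black diamonds) in each of the 8 samples. *Adipoq* and the marker sum have the same order of samples within each state, with replicate 4 lowest in both, while *Nampt* stays between 45.0 and 52.8 CPM in SCA1-Low-FAPs.

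Markers of other cells that make some of these factors were also counted. Neutrophils make much lipocalin-2, and the summed neutrophil markers stood at 4.40 to 17.9 CPM in SCA1-High-FAPs and 5.71 to 11.6 CPM in SCA1-Low-FAPs. *Lcn2* itself stood at 4.03 to 19.6 CPM and 0 to 6.34 CPM, so these ranges overlap. The part of other cells in its mRNA was not tested. Only *S100a8* and *Camp* of the 6 had any count. The 7 leucocyte markers summed to 26.7 to 48.4 CPM against 18.0 to 24.1 CPM, and *Lyz2*, the only one tested, was higher in SCA1-High-FAPs (log2 fold change −1.42, adjusted p = 0.0153). *Ptprc*, which encodes CD45, had 1 count. *Cd68* had 27 counts over SCA1-High-FAPs and 6 over SCA1-Low-FAPs, *Csf1r* had 32 and 58, and *Cd14* had 15 and 46. The 5 endothelial markers summed to at most 7.39 CPM in any sample, and the 4 mural markers to 9.95 to 19.8 CPM in SCA1-High-FAPs and 17.8 to 62.1 CPM in SCA1-Low-FAPs, where *Cspg4* and *Myh11* passed as higher. *Cspg4* overlapped between the states and kept its call in 2 of the 8 fits that left out a sample, and *Myh11* in 5.

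Of 13 genes of the adiponectin pathway other than the ligand and its receptors, 10 were tested and 3 passed, all higher in SCA1-High-FAPs. The share of all tested genes that passed in that direction was 4.36%. *Appl2*, an adaptor that binds the receptors, had a log2 fold change of −1.31 ± 0.26 (SE, adjusted p = 0.00545). It stood at 35.3 to 69.7 CPM against 16.4 to 25.7 CPM, whereas its paralogue *Appl1*, the adaptor that carries the signal, was at 128 ± 16.8 and 119 ± 11.7 CPM (SD, n = 4 each). *Acsl1*, which activates fatty acids for oxidation or storage, had −2.13 ± 0.39 (SE, adjusted p = 0.0114). *Ppargc1a*, a coactivator of mitochondrial genes, had −1.82 ± 0.49 (SE, adjusted p = 0.0297), a call kept in 2 of the 8 fits that left out a sample. With SCA1-High-FAPs replicate 1, 2 or 3 left out its adjusted p was 0.0589, 0.0524 and 0.0838, and with SCA1-Low-FAPs replicate 1, 2 or 4 left out it was 0.0752, 0.0804 and 0.0922. The AMPK subunit gene *Prkaa1* (−0.26, adjusted p = 0.587) and the genes *Erp44* and *Ero1a* (listed as *Ero1l*) of adiponectin secretion (0.17 and 0.02) did not pass. *Cdh13*, which encodes T-cadherin, a binding protein of adiponectin, was low in both states, at 2.67 ± 1.80 and 6.17 ± 3.50 CPM (SD, n = 4 each). The median log2 fold change of the 10 was −0.18.

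Of 17 genes whose products act with the secreted factors, 11 were tested, 3 were higher in SCA1-High-FAPs and 1 was higher in SCA1-Low-FAPs. The shares of all tested genes that passed in these directions were 4.36% and 3.32%. *Lpl*, the lipoprotein lipase that ANGPTL4 inhibits, stood at 3684 ± 1709 CPM against 658 ± 214 CPM (SD, n = 4 each), with a log2 fold change of −2.49 (adjusted p = 0.00704). Its secretion partner *Lmf1* was at 0.15 (adjusted p = 0.780). *Cfb*, whose product adipsin cleaves, was higher in SCA1-High-FAPs (−2.91, adjusted p = 0.0117), and *C3*, at 34.8 to 332 CPM against 1.45 to 13.6 CPM, did not overlap between states but missed the threshold (−4.57, adjusted p = 0.0531), which it passed with DESeq2 (adjusted p = 8.52e-05). *Masp1*, one of whose products activates pro-adipsin, had 1.44 in the other direction (adjusted p = 0.0565) and also passed with DESeq2 (adjusted p = 0.000452). *Slc22a17*, a receptor gene for lipocalin-2, was higher in SCA1-High-FAPs (−1.53, adjusted p = 0.0301). *Eng*, which encodes endoglin, the partner of LRG1, was higher in SCA1-Low-FAPs (0.75, adjusted p = 0.0241). *Cap1* and *Tlr4*, genes of proposed resistin receptors, did not pass, at 0.33 and −0.36, nor did *Nmnat1* and *Nmnat2*, which act after NAMPT in NAD synthesis, at −0.57 and −0.09. As single samples were left out, *Lpl* passed in 8 of the 8 fits, *Cfb* in 6, *Eng* in 5, *Slc22a17* in 4, *C3* in 3 and *Masp1* in 2.

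Other adipokines moved in both directions. Of 21 genes 12 were tested, 5 passed as higher in SCA1-High-FAPs and 3 as lower, with a median log2 fold change of −0.29. Among all tested genes 4.36% passed as higher in SCA1-High-FAPs and 3.32% as lower. *Agt*, the gene of angiotensinogen (−4.57, adjusted p = 0.0200), *Saa3*, an acute phase gene (−4.05, adjusted p = 0.00923), *Hp*, which encodes haptoglobin (−3.23, adjusted p = 0.0440), *Rarres2*, which encodes chemerin (−3.20, adjusted p = 0.0269), and *Rbp4*, a retinol carrier (−1.93, adjusted p = 0.0449), were higher in SCA1-High-FAPs. Among those higher in SCA1-Low-FAPs were *Metrnl* (1.20, adjusted p = 0.00490) and *Angptl2* (0.73, adjusted p = 0.0141), a relative of *Angptl4*. As single samples were left out, *Metrnl* passed in 8 of the 8 fits, *Saa3* and *Angptl2* in 7, *Agt* and *Rarres2* in 5, *Rbp4* in 3 and *Hp* in 1. *Itln1* and *Nrg4* had no count. Of the 9 C1q/TNF-related genes, paralogues of *Adipoq*, 6 were tested and 0 passed by edgeR. Of these, 2 had an unadjusted p under 0.05, *C1qtnf1* at −1.61 (adjusted p = 0.0881) and *C1qtnf12* at −1.08 (adjusted p = 0.0559), and with DESeq2 *C1qtnf12* passed (adjusted p = 0.0394). Of the 6, 3 had a negative and 3 a positive log2 fold change, with a median of 0.10.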

How the data were processed

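RNA of 4 SCA1-High-FAPs and 4 SCA1-Low-FAPs samples was measured with 3′ mRNA libraries. The authors trimmed the reads with bbduk, aligned them with STAR to mm10 and assigned unique reads to Ensembl genes with htseq-count, and the deposited values are these raw counts per gene. The strand setting is not given in the sources used here. Reads on no feature (13.3% to 16.4%) were left out of library sizes. Identifiers were matched to GENCODE M21 on GRCm38, the same assembly as mm10.

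Counts were normalised by TMM, filtered with filterByExpr (at least 10 counts in enough samples, 15 in total) and compared in R 4.3.3 with edgeR 4.0.16 (glmQLFit, robust, and glmQLFTest). All adjusted p-values are from edgeR with Benjamini-Hochberg adjustment unless DESeq2 1.42.0 is named. The adjustment ran over 10181 genes in the main fit. In the fits that left out a sample or used another filter, it ran over the genes that passed the filter there. The SE of a log2 fold change was its absolute value over the square root of the F statistic. Correlations used TMM log2 CPM with a prior count of 2. The ratio of receptors was tested by exact permutation over 70 assignments. On simulated data the edgeR test called 89 of 100 genes changed 4-fold and 44 of 100 changed 2-fold. Of its 141 calls there, 8 were false. DESeq2 called 94 and 51 of these genes, and 22 of its 167 calls were false. A gene that did not pass by edgeR may therefore still differ by about 2-fold, and by more where its replicates scatter widely. *Cfd* did not pass with an estimated 43.9-fold difference, nor *Lrg1* with 9.87-fold. No pair of libraries agreed within sampling noise. Figures were drawn with matplotlib 3.10.9. Alternatives were RLE factors, other filters, DESeq2, the replicate number as a block, each sample left out and an adjusted p of 0.01. Leaving out samples in the correlations was chosen after seeing the data.

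The replicates are described as biological, from 4 mice in all. The genes and lists were chosen with earlier results of these data known. Named are all 10 genes, the called genes of each list with members of known role (some listed genes are not reported here), and the 5 genes most like *Adipoq* and *Adipor2*.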

Additional observations from a re-analysis of the deposited data

Results flagged for a closer look

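Among 22 sets of 4 replicates (each of the 10 genes in each state, *Lep* at 0 included, and the log2 ratio of receptors), 3 had 1 sample far from the other samples of its state, by a criterion that chance meets in about 5% of such sets. *Cfd* in SCA1-Low-FAPs was highest in replicate 3, at 42.8 CPM, where the next sample had 7.73 CPM. *Lrg1* in SCA1-High-FAPs was highest in replicate 3, at 127 CPM, where the next had 43.3 CPM. *Angptl4* in SCA1-High-FAPs was highest in replicate 3, at 88.5 CPM, where the next had 47.7 CPM.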

How the results depend on the processing

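Between 3 and 7 of the genes passed as single samples were left out, against 5 with all samples. *Adipor2*, *Retn* and *Nampt* passed in each of these fits. Without SCA1-Low-FAPs replicate 3 there were 7, and without SCA1-High-FAPs replicate 1 or 3, or SCA1-Low-FAPs replicate 1, 2 or 4, there were 3. The counts in such fits ran from 410 to 1017 for all genes (246 to 583 higher in SCA1-High-FAPs and 159 to 434 higher in SCA1-Low-FAPs), from 1 to 6 for partners of the secreted factors and from 2 to 8 for other adipokines, and the difference in log2 receptor ratio from −1.72 to −1.25. The log2 fold change of *Adipor1* ran from −0.11 to 0.23 and turned negative in 4 of them, at −0.11 and −0.01 without SCA1-High-FAPs replicates 2 and 3 and at −0.04 and −0.02 without SCA1-Low-FAPs replicates 1 and 3. The correlation with *Adipoq* ran from −0.0911 to 0.627 for *Adipor1* and from −0.309 to 0.59 for *Nampt*. The causes were not tested.

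With an adjusted p of 0.01, 307 genes passed (181 and 126 in the 2 directions), with 3 of the group, 1 of the adiponectin pathway, 1 partner and 2 other adipokines. With no filter beyond 1 count 5 other adipokines passed, with at least 10 counts in every sample 4, and *C1qtnf12* passed in both fits and with DESeq2, making 1 C1q/TNF-related gene. DESeq2 called 10 adipocyte markers and 7 of the group, with *Cfd* and *Lrg1* added.

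Same-numbered samples of the 2 states had correlations of deviations from −0.0502 to 0.00673, against −0.282 to 0.255 for other pairs, and no source states that equal numbers are 1 mouse. With the replicate block 697 genes passed, 619 of them shared with the 782, and 7 of the group, with *Cfd* (adjusted p = 0.00180) and *Lrg1* (adjusted p = 0.00288) added. The receptor ratio with the replicate block kept its difference of −1.46, and exact sign flips of 4 pairs gave p = 0.125, the smallest they allow.

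Of the log2 fold changes of the group under alternatives, 78 kept direction and side of the threshold, 12 lost the call, 7 gained it and 4 changed sign. Depth limits *Lep*, *Lcn2* and, in SCA1-Low-FAPs, *Retn*, *Cfd* and *Lrg1*.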
